A study of Mus musculus with 12 samples.

Results

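Cadherins, claudins and integrin subunits are the surface proteins by which a cell holds on to its neighbours and to the matrix under it. Their mRNAs were followed in mouse embryonic stem cells (ESCs) after knockdown of Ino80. The genes were taken by name from the array design: every non-control probe named Cdh or Cldn with a number, or Itga or Itgb with a subunit sign, but not the 4 genes of the Itgb1bp and Itgb3bp names. Members were chosen with earlier results of these data known, but the name rule itself uses no measured value. It gave 72 genes with 128 probes out of 27672 gene names on the array: 23 cadherins, 21 claudins, 26 integrin subunits and 2 genes that the rule takes but that are not integrin subunits (Itgb4bp, an older name of Eif6, and Itgbl1). A gene was analysed where 1 of its probes stood well above background in any group, on both of that group's arrays, and each gene was represented by its brightest such probe. By this filter 53 genes were kept: 13 cadherins, 15 claudins, 24 integrin subunits and Itgb4bp. The 19 others were Cdh5, Cdh6, Cdh7, Cdh8, Cdh12, Cdh16, Cdh17, Cdh18, Cdh19, Cdh24, Cldn8, Cldn11, Cldn13, Cldn16, Cldn17, Cldn22, Itga2, Itgb2l and Itgbl1.

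J1, an established mouse ESC line, was infected with a lentivirus that carried a short hairpin RNA, and total RNA was taken 2, 4 or 6 days later (48, 96 and 144 hours). The hairpin was either non-targeting (shNT, the control) or directed against Ino80 (shIno80), which encodes the catalytic ATPase of a chromatin remodelling complex. Each of the 6 groups (shNT and shIno80 at each of the 3 days) had 2 single-colour Agilent arrays, 12 in all, numbered as replicates in the labels. No source used here says whether the 2 samples of a group came from separate cultures or infections, or how many hairpin sequences were used. The spread behind each p-value is therefore that between these samples and may be technical. Cells of both arms were kept in ESGRO medium and moved to M15 medium for infection. The sample descriptions count the hours from transfection and the protocol from infection.

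Some values of the series bear on every result. The deposited value table and the deposited scanner files disagree on the sample of 6 of the 12 arrays, those at positions 2 and 3 of each slide, which are exchanged. Samples follow the value table here. By it, arrays of 1 group correlated at r = 0.9869 to 0.9890 across probes, and arrays of different groups at no more than 0.9868. By the scanner files, arrays of 1 group correlated at 0.9653 to 0.9868, and no member passed limma's test on any day. Of all 19005 genes tested that way, 1 was higher and 1 lower at day 2, 4 and 4 at day 4, and 0 and 0 at day 6 (limma adjusted p under 0.05). Their unadjusted p was under 0.05 for 660, 263 and 456 genes on these days. Signals are given as log2 relative to the 75th percentile of the array, the 2 shNT arrays before the 2 shIno80 arrays. Ino80 itself read 2.75 and 2.68 versus 0.59 and 0.86 at day 2. It was 2.27 and 2.16 versus −0.28 and 0.13 at day 4 and 1.89 and 2.06 versus −0.19 and 0.03 at day 6. The shIno80 arrays were the lower ones on each day, without overlap (differences −1.99 ± 0.16, −2.29 ± 0.16 and −2.06 ± 0.16, SE; limma adjusted p = 0.000725, 2.48e-05 and 2.66e-05). The choice of record was made with these values in view, so they do not check the labels. The 75th percentile that signals are scaled to was 1155 to 1604 in processed intensity, and no spot of a member was saturated.

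Classical cadherins bind the same cadherin on the next cell and are tied to actin by catenins, in the adherens junction. Claudins span the membrane at tight junctions, where the kind of claudin sets which ions pass between epithelial cells. Integrins are pairs of an alpha and a beta subunit that bind laminins, collagens, fibronectin or counter-receptors on other cells and signal through talin, kindlins and focal adhesion proteins. ESC colonies are held together by E-cadherin, the product of Cdh1, and the first epithelium of the embryo, the trophectoderm, seals itself with tight junctions.

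In shIno80 cells, 4 of the 53 members were higher and 2 lower at day 2, 20 higher and 4 lower at day 4, and 22 higher and 8 lower at day 6 (limma adjusted p under 0.05). The shares of members were 7.55% higher and 3.77% lower at day 2, where 6.3% of all 19185 genes tested were higher and 6.33% lower. At day 4 the member shares were 37.7% and 7.55%, against 21.2% higher and 21.2% lower among all genes. At day 6 they were 41.5% and 15.1%, against 21.8% higher and 28.4% lower. The median difference over members was 0.07, 0.21 and 0.37 on the log2 scale at days 2, 4 and 6, and over all genes 0.01, −0.05 and −0.11. Cdh1, Cldn6, Cldn7 and Cldn12 were higher on all 3 days and Itgb7 was lower on all 3. No member was called in opposite directions on different days, and 19 members were called on none.

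The filter bears on these counts. Cdh26, Cldn1, Cldn23, Itga11, Itga4 and Itgb6 passed it only through shIno80 groups, and Cldn2, Cldn19 and Itgb8 only through shNT groups. Over the other 44 members, 4 were higher and 2 lower at day 2, 15 and 4 at day 4, and 17 and 7 at day 6. No such count is given for all genes, so the all-gene shares above are no like measure for these 44. Scaling moves the split of all genes but not that of the members by as much. With each array centred on its median, 3164 genes were higher and 4821 lower at day 4 (4072 and 4073 as scaled here), the median of all genes was −0.19 at day 4 and −0.21 at day 6, and 20 members were higher and 4 lower at day 4. With the deposited value table, 5604 genes were higher and 3440 lower at day 6 (4174 and 5448 here), and 26 members were higher and 6 lower. In bulk RNA, fewer cells of a type and less RNA per cell cannot be told apart.

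**Figure D1:**
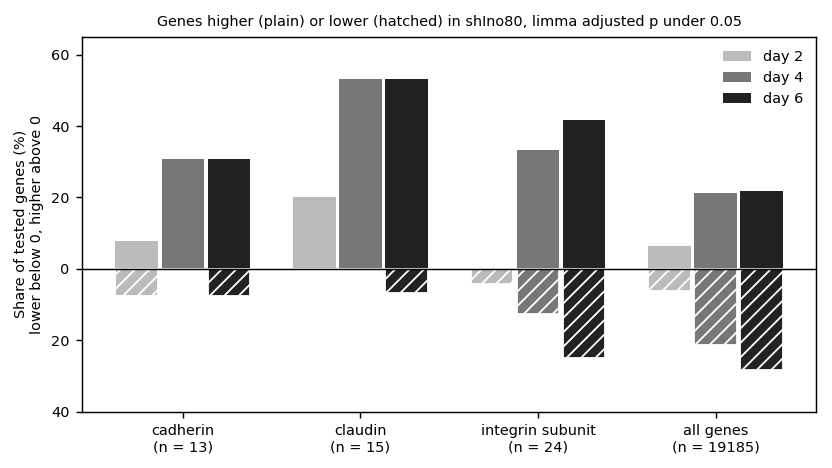
Share of tested genes (%) that were higher (plain bars, upward) or lower (hatched bars, downward) in shIno80 than in shNT at days 2, 4 and 6, for 13 cadherins, 15 claudins, 24 integrin subunits and all 19185 genes. Claudins reached 53.3% higher at days 4 and 6, against 21.2% and 21.8% of all genes. Integrin subunits were 41.7% higher and 25.0% lower at day 6, against 21.8% and 28.4% of all genes. Of the members called at day 6, Cdh26, Cldn1, Cldn23, Itga11 and Itgb6 passed the filter only through shIno80 groups, and Itgb8 only through shNT groups.

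**Figure D2:**
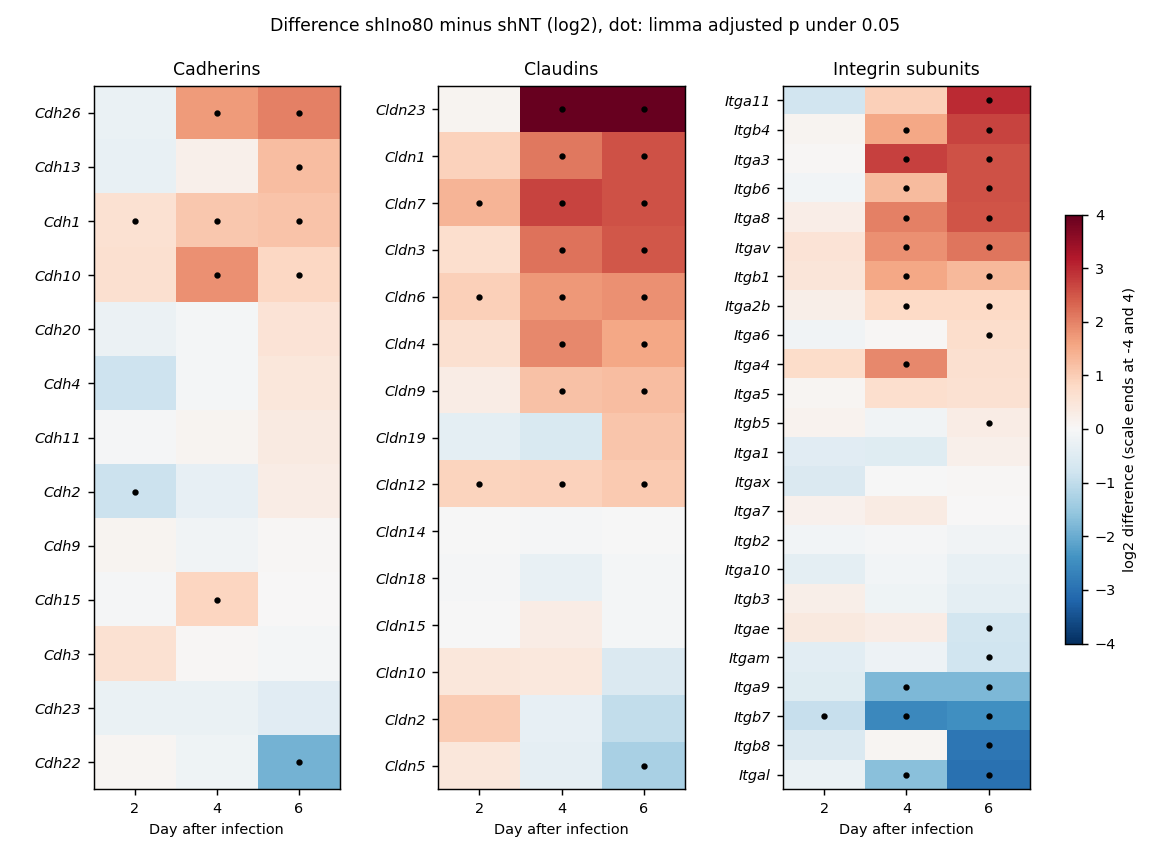
Difference of shIno80 and shNT (colour, log2, red for higher in shIno80) for each kept cadherin, claudin and integrin subunit (rows, in order of the day 6 value) at days 2, 4 and 6 (columns). A dot marks a limma adjusted p under 0.05: most dots lie at days 4 and 6, and day 2 has 6.

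The classical cadherin Cdh1, which encodes E-cadherin, was the only cadherin higher on all 3 days. Its log2 signal was 3.38 and 3.74 for shNT versus 4.02 and 4.29 for shIno80 at day 2. It was 4.19 and 4.19 versus 5.25 and 5.27 at day 4 and 4.10 and 4.15 versus 5.28 and 5.28 at day 6. The groups did not overlap on any day, and the arrays of a group lay close together at days 4 and 6. Cdh1 was 1.51-fold higher at day 2, 2.09-fold at day 4 and 2.22-fold at day 6 (0.60 ± 0.14, 1.07 ± 0.14 and 1.15 ± 0.14 on the log2 scale, SE, with n = 2 arrays in each group throughout; limma adjusted p = 0.0274, 0.000428 and 0.000217). The day 2 call was lost with the first shNT array or the second shIno80 array of that day left out (0.41 and 0.46), and with median scaling (0.55).

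Cdh2 encodes N-cadherin, the classical cadherin of mesenchymal and neural cells. At day 2 its log2 signal was −2.38 and −2.01 for shNT versus −3.31 and −2.77 for shIno80, both shIno80 arrays below both shNT arrays. It was −1.76 and −1.85 versus −2.20 and −2.05 at day 4 and −2.15 and −2.18 versus −1.84 and −1.91 at day 6, so the shIno80 arrays went from below shNT to above it. Cdh2 fell by 0.85 ± 0.19 at day 2 (limma adjusted p = 0.0236), and the differences of −0.32 ± 0.19 at day 4 and 0.29 ± 0.19 at day 6 did not pass (adjusted p = 0.216 and 0.231). The change of the difference from day 2 to day 6 passed, at 1.14 ± 0.26 (adjusted p = 0.015). The day 2 call was lost without the second shNT array (−0.67) or the first shIno80 array (−0.58) of that day. The other kept probe of Cdh2, well above background on 5 arrays, was at −0.09, −0.53 and −0.16 on the 3 days, so it did not cross.

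Cdh3, for P-cadherin of basal and placental epithelium, is the neighbour of Cdh1 in the gene table. Log2 signals were 0.41 and −0.31 for shNT versus 0.83 and 0.51 for shIno80 at day 2, −0.26 and −0.89 versus −0.45 and −0.59 at day 4 and 0.37 and 0.48 versus 0.18 and 0.54 at day 6. The groups overlapped at days 4 and 6, and no difference passed (0.62 ± 0.28, 0.05 ± 0.28 and −0.06 ± 0.28; limma adjusted p = 0.198, 0.9 and 0.87).

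Among the type II cadherins, Cdh10 rose at days 4 and 6. At day 2 its log2 signal was −4.46 and −4.35 for shNT versus −4.10 and −3.44 for shIno80. It was −3.80 and −3.63 versus −1.92 and −1.83 at day 4 and −2.84 and −3.34 versus −2.20 and −2.35 at day 6, with every shIno80 array above the shNT arrays. The differences were 1.84 ± 0.23 at day 4 and 0.82 ± 0.23 at day 6 (limma adjusted p = 0.000354 and 0.0172), after 0.63 ± 0.23 at day 2, which did not pass. Probes of the gene did not move alike: another probe well above background on all 12 arrays was at −0.07 at day 4 and 0.14 at day 6. The day 6 call was lost without the second shNT array (0.57) or the first shIno80 array (0.74) of that day. Cdh22, another type II cadherin, fell at day 6. The arrays read −3.94 and −4.14 versus −3.77 and −4.16 at day 2, −5.60 and −5.37 versus −5.66 and −5.65 at day 4 and −3.93 and −4.33 versus −6.31 and −5.75 at day 6. In both arms it was lower at day 4 than at day 2, and in shNT it was back near its day 2 signal at day 6. It was not well above background in shIno80 at day 6, so the fall was at least 3.32-fold (fitted difference −1.90 ± 0.23, limma adjusted p = 0.000213). Here and below, a p-value beside such a bound tests the fitted difference and not the bound.

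Cdh13 encodes T-cadherin, which has a lipid anchor and no cytoplasmic tail. Its log2 signal was −3.38 and −2.87 versus −3.69 and −3.13 at day 2, −2.95 and −2.57 versus −2.63 and −2.48 at day 4 and −3.01 and −3.20 versus −1.80 and −1.92 at day 6. The groups overlapped at days 2 and 4 and were apart at day 6, where the difference was 1.25 ± 0.23 (limma adjusted p = 0.0025). Its other kept probe, well above background on 5 arrays, was at −0.26 at day 6. Cdh26, a cadherin of epithelia, did not stand well above background in shNT on any day. Log2 signals were −6.38 and −6.33 versus −7.17 and −6.07 at day 2, −6.98 and −6.85 versus −5.52 and −4.88 at day 4 and −6.41 and −7.97 versus −5.16 and −5.19 at day 6, where one shNT array lay far below the other. It was at least 1.85-fold and 1.66-fold higher on these days (limma adjusted p = 0.0252 and 0.0107). Both shNT arrays of day 4 and the second shIno80 array of day 4 were each needed for the day 4 call. At day 6 the fitted difference was 2.01, 1.23 without the second shNT array, where the call was lost, and 2.80 without the first.

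The remaining kept cadherins were Cdh4, Cdh9, Cdh11, Cdh15, Cdh20 and Cdh23. Of these only Cdh15, for the M-cadherin of muscle, passed on any day, and it did so at day 4 alone (0.87 ± 0.12, limma adjusted p = 0.000507, against 0.00 ± 0.12 at day 6). Over the family, 1 of 13 was higher and 1 lower at day 2, 4 higher at day 4, and 4 higher and 1 lower at day 6. The shares higher were 7.69%, 30.8% and 30.8%, against 6.3%, 21.2% and 21.8% of all genes. The shares lower were 7.69%, 0% and 7.69%, against 6.33%, 21.2% and 28.4%. Of the cadherins called, Cdh26 passed the filter only through shIno80 groups. Over the 13 cadherins, the median difference was −0.06, 0.05 and 0.37. With normexp background correction, Cdh1 at days 4 and 6 kept its call, and all other calls of the family, Cdh15 included, were lost.

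**Figure D3:**
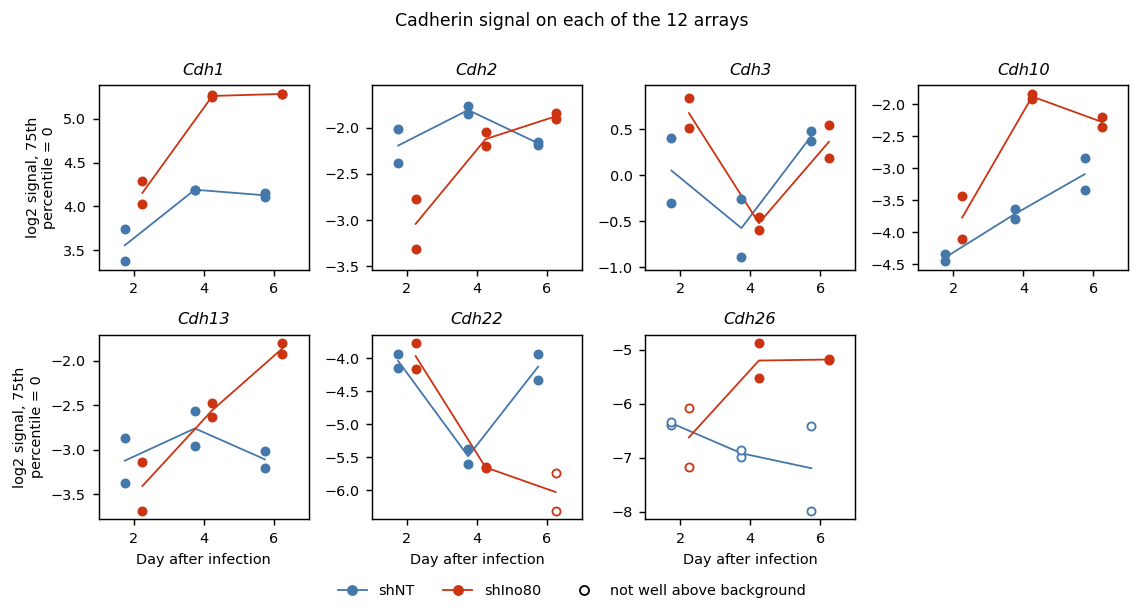
Log2 signal relative to the 75th percentile of the array for 7 cadherins on each of the 12 arrays, by day after infection, in shNT (blue) and shIno80 (red); lines join group means, open circles are arrays not well above background, and each panel has its own scale. Cdh1 lies higher in shIno80 on every day, while Cdh2, by its brightest probe, crosses from below to above shNT without a call at day 6.

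Claudins were the family with the largest share of higher genes. Of 15 tested, 3 were higher at day 2 (Cldn6, Cldn7 and Cldn12), 8 were higher at day 4, and 8 were higher and 1 lower at day 6. The median difference was 0.46, 0.94 and 1.09 on the log2 scale. Those higher at days 4 and 6 were Cldn1, Cldn3, Cldn4, Cldn6, Cldn7, Cldn9, Cldn12 and Cldn23, and the one that fell at day 6 was Cldn5. Promoter windows are printed for the neighbouring pair Cldn3 and Cldn4, for the claudins higher on all 3 days (Cldn6, Cldn7 with its 2 windows, and Cldn12 with the first of its 3 overlapping windows), and for Itgb7, the member lower on all 3 days. Cldn3 and Cldn4 stand next to each other in the RefSeq gene table, and so do Cldn6 and Cldn9. Each window of 300 bases spans a gene start, most of it upstream, and comes from a RefSeq promoter table of build GRCm38.p6 (chr5:134985964-134986263, plus strand; chr5:134946885-134947184, minus strand; chr17:23679115-23679414, plus strand; chr11:69964529-69964828, plus strand; chr11:69965171-69965470, plus strand; chr5:5514740-5515039, minus strand; chr15:102231886-102232185, minus strand). Of the 72 genes, 50 had windows in it. Capitals mark matches, on either strand, to CAGGTG (the E-box bound by Snail and Zeb repressors), GGAATG (bound by TEAD factors), TGANTCA (AP-1) and GGGCGG (the GC box).
Cldn3: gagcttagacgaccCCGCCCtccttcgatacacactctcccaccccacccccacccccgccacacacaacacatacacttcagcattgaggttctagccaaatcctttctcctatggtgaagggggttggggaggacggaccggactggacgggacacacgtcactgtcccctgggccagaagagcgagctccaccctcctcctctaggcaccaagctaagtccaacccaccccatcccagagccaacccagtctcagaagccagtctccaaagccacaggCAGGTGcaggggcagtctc
Cldn4: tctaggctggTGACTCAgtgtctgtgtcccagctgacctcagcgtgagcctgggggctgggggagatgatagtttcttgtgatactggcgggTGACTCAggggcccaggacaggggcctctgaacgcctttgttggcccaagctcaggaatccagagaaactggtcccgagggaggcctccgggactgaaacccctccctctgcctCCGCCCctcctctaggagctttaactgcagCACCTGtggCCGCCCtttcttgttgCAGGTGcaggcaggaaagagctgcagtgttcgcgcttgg
Cldn6: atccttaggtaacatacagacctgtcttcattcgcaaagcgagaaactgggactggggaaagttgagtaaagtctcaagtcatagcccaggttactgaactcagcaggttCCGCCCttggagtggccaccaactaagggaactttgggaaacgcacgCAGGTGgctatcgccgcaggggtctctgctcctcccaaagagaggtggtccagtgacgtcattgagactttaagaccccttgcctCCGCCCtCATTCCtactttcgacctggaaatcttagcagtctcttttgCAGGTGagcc
Cldn7: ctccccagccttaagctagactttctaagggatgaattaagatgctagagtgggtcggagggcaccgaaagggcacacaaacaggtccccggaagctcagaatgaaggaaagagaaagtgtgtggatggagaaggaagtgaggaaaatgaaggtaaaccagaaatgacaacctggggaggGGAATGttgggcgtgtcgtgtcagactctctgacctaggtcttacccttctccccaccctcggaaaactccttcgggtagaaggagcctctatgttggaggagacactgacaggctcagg
Cldn7: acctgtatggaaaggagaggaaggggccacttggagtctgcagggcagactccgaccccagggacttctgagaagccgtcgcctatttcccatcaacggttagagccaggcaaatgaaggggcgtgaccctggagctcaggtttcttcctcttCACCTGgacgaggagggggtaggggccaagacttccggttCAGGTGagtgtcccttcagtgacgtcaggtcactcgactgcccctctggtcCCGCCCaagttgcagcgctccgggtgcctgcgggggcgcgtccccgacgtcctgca
Cldn12: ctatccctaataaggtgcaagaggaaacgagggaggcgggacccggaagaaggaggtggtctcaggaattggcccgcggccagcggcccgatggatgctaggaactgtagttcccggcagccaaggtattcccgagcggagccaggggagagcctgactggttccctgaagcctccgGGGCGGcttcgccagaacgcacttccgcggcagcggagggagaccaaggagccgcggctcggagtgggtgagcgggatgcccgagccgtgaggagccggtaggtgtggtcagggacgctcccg
Itgb7: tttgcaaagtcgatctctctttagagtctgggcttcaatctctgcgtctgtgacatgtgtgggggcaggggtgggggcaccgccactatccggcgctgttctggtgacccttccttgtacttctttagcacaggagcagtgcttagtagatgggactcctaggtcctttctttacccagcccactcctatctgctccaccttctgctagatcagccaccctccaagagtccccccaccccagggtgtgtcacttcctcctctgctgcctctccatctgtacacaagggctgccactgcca
In these windows the E-box was found 1 time for Cldn3, 2 times each for Cldn4, Cldn6 and the second Cldn7 window, and no motif for Itgb7. The first Cldn7 window held no E-box and 1 GGAATG. None of the 3 windows of Cldn12 held an E-box, and neither did that of Cldn1. Over all member windows, 14 of 62 (22.6%) held an E-box, against 20.2% of the 32851 windows in the table. GGAATG was in 17.7% against 14.7%, TGANTCA in 8.06% against 7.81%, and GGGCGG in 45.2% against 35.7%. A match describes letters in this window and no binding was measured.

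Cldn7, a claudin of many simple epithelia, had the largest difference at day 2 among claudins that passed. The arrays read −0.39 and 0.08 for shNT versus 1.02 and 1.37 for shIno80 at day 2. It was 1.60 and 1.42 versus 4.24 and 4.19 at day 4 and 2.78 and 2.27 versus 5.08 and 5.09 at day 6. Both arms rose with time, shIno80 above shNT on every day and without overlap. Cldn7 was 2.56-fold higher at day 2, 6.51-fold at day 4 and 5.89-fold at day 6 (1.36 ± 0.21, 2.70 ± 0.21 and 2.56 ± 0.21; limma adjusted p = 0.007, 3.87e-05 and 3.36e-05).

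Cldn6, a claudin of early embryonic epithelia, followed the same order. At day 2 its log2 signal was 0.48 and 0.31 versus 1.43 and 1.28. It was 1.38 and 0.87 versus 2.96 and 2.77 at day 4 and 2.29 and 2.04 versus 3.89 and 4.12 at day 6. The differences were 0.96 ± 0.19, 1.74 ± 0.19 and 1.84 ± 0.19 (limma adjusted p = 0.015, 0.000165 and 9.26e-05), and the day 2 call was lost without the second shNT array or either shIno80 array of that day (0.88 to 1.04). Its neighbour Cldn9 had a log2 signal of −2.48 and −2.50 versus −2.18 and −2.20 at day 2, −2.10 and −2.31 versus −0.94 and −1.13 at day 4 and −1.22 and −1.56 versus −0.29 and −0.02 at day 6. It was higher in shIno80 by 1.17 ± 0.15 and 1.23 ± 0.15 at days 4 and 6 (adjusted p = 0.000443 and 0.000263), and the 0.30 ± 0.15 at day 2 did not pass.

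Cldn3 and Cldn4, barrier-forming claudins of epithelia, were both higher in shIno80 at days 4 and 6. The log2 signal of Cldn3 was −1.05 and −0.42 for shNT versus −0.29 and 0.13 for shIno80 at day 2, −0.50 and −0.39 versus 1.82 and 1.62 at day 4 and 0.47 and −0.10 versus 2.67 and 2.66 at day 6. That of Cldn4 was −1.50 and −1.11 versus −0.87 and −0.48, −0.71 and −0.74 versus 1.18 and 1.21 and 0.59 and 0.59 versus 1.94 and 2.33 on the same days. For both, the shIno80 arrays were above the shNT arrays on all 3 days. Cldn3 was 4.49-fold above shNT at day 4 and 5.58-fold at day 6 (limma adjusted p = 0.00025 and 9.29e-05), and Cldn4 3.81-fold and 2.91-fold (adjusted p = 9.58e-05 and 0.000226). At day 2 the differences of 0.66 ± 0.25 and 0.63 ± 0.19 did not pass (adjusted p = 0.137 and 0.061).

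Cldn12 differed by nearly the same amount on each day. Its log2 signal was 0.06 and 0.31 versus 1.03 and 1.09 at day 2, 0.47 and 0.56 versus 1.49 and 1.41 at day 4 and 0.36 and 0.17 versus 1.44 and 1.16 at day 6. The groups were apart on each day, by 0.88 ± 0.14, 0.94 ± 0.14 and 1.04 ± 0.14 (limma adjusted p = 0.00634, 0.000778 and 0.000349), and no change of the difference between days passed.

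Cldn23, and Cldn1, known from the epidermal barrier, were near background in shNT. Cldn23 did not stand well above background in shNT, nor in shIno80 at day 2 (−7.34 and −7.01 versus −7.24 and −6.90). Log2 signals were −7.93 and −7.60 versus −3.69 and −3.76 at day 4 and −6.15 and −7.68 versus −1.56 and −1.38 at day 6, far above shNT in both. It was at least 5.15-fold higher at day 4 and at least 21.7-fold at day 6 (limma adjusted p = 0.000136 and 2.19e-05). The fitted day 6 difference of 5.45 became 6.21 without the first and 4.68 without the second shNT array of that day. Cldn1 had a log2 signal of −7.50 and −7.07 versus −7.64 and −5.07 at day 2, −5.80 and −6.24 versus −3.87 and −3.95 at day 4 and −5.34 and −6.18 versus −3.07 and −3.33 at day 6. Its 2 shIno80 arrays of day 2 lay far apart, and 1 shNT array of day 6 was well above background. At day 4, with no shNT array well above background, it was at least 3.99-fold above shNT (limma adjusted p = 0.0385). The fitted day 6 difference was 2.56 ± 0.69 (adjusted p = 0.0148), with 1 of its 2 shNT arrays near background. The day 4 call was lost with any 1 of the 4 arrays of day 4, or of 4 arrays of other days, left out, and the day 6 call without the second shNT or the first shIno80 array of day 6 (2.14 and 2.43).

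Cldn5, the claudin of endothelium, went the other way. The arrays read −1.24 and −0.87 versus −0.53 and −0.65 at day 2, −1.30 and −1.06 versus −1.44 and −1.62 at day 4 and −1.20 and −1.58 versus −2.63 and −2.77 at day 6. The shIno80 arrays were the higher at day 2 and the lower at days 4 and 6. It fell by 1.31 ± 0.18 at day 6 (limma adjusted p = 0.00041), and the change of the difference from day 2 to day 6 was −1.78 ± 0.25 (adjusted p = 0.00163). Cldn2, Cldn10, Cldn14, Cldn15, Cldn18 and Cldn19 passed on no day. With normexp background correction, Cldn3, Cldn4, Cldn6, Cldn7 and Cldn12 kept their calls at days 4 and 6, while Cldn1, Cldn5, Cldn9 and Cldn23 lost theirs (0.22 at day 4 and 2.30 at day 6 for Cldn23).

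**Figure D4:**
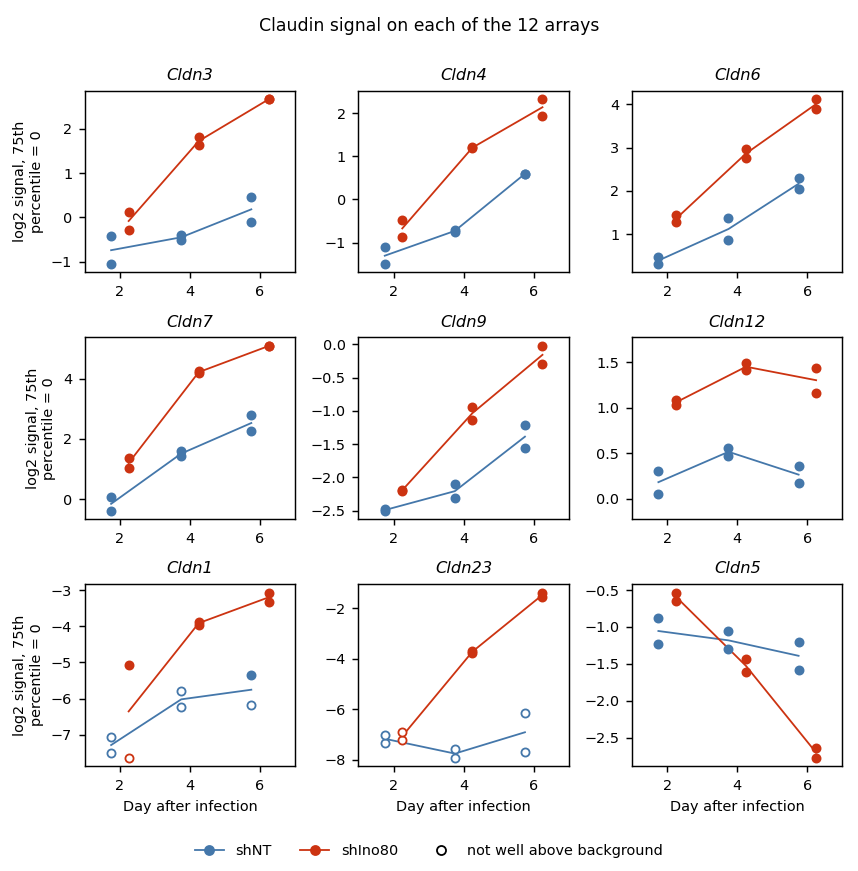
Log2 signal relative to the 75th percentile of the array for 9 claudins on each of the 12 arrays, by day after infection, in shNT (blue) and shIno80 (red); lines join group means, open circles are arrays not well above background, and each panel has its own scale. Cldn3, Cldn4, Cldn6, Cldn7 and Cldn9 rise in both arms and lie higher in shIno80, while Cldn5 falls below shNT by day 6.

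Part of the claudin course was seen in the control arm. Between day 2 and day 6 of shNT, Cldn7 rose by 2.68 ± 0.21, Cldn4 by 1.90 ± 0.19, Cldn6 by 1.77 ± 0.19, Cldn9 by 1.10 ± 0.15 and Cldn3 by 0.92 ± 0.25 (limma adjusted p = 0.000242, 0.000447, 0.000606, 0.00188 and 0.0331). Cdh1 rose by 0.57 ± 0.14 over these days. In all, 12 members were higher and 8 lower in shNT at day 6 than at day 2, where 11.2% of all genes were higher and 11.6% lower. Each slide held the arrays of 1 day, so slide and day cannot be told apart in this comparison.

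Integrin subunits moved in both directions. Of 24 tested, 1 was lower at day 2, 8 were higher and 3 lower at day 4, and 10 higher and 6 lower at day 6. The shares higher were 33.3% at day 4 and 41.7% at day 6, against 21.2% and 21.8% of all genes. The shares lower were 12.5% and 25.0%, against 21.2% and 28.4%, so at day 6 the share lower was near that of all genes. Of the subunits called, Itga4, Itga11 and Itgb6 passed the filter only through shIno80 groups and Itgb8 only through shNT groups. Over the 24 subunits, the median difference was −0.03, 0.18 and 0.24 on the log2 scale. Those higher at day 6 included the beta 1 chain with the laminin-binding alpha 3 chain and the alpha 8 and alpha 11 chains, the beta 4 chain, and the alpha v chain. Those lower included alpha 9 and subunits best known from leukocytes.

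Itgb1 encodes the beta 1 chain, the common partner of most matrix-binding alpha chains. Its log2 signal was 0.72 and 0.32 for shNT versus 1.13 and 0.86 for shIno80 at day 2, 0.74 and 0.47 versus 2.19 and 2.10 at day 4 and 1.26 and 1.29 versus 2.54 and 2.63 at day 6. The shIno80 arrays were the higher on each day. Itgb1 was 2.9-fold above shNT at day 4 and 2.47-fold at day 6 (limma adjusted p = 0.000149 and 0.00026), and the 0.48 ± 0.16 at day 2 did not pass (adjusted p = 0.0943). A further probe of the gene was at 0.53, 1.59 and 1.48 on the 3 days.

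Itga3, whose product pairs with beta 1 as a laminin receptor, had a log2 signal of 0.39 and 0.11 for shNT versus 0.43 and 0.16 for shIno80 at day 2. It was −0.67 and −0.58 versus 2.16 and 2.04 at day 4 and 0.84 and 0.51 versus 3.16 and 3.27 at day 6. The groups overlapped at day 2 and were well apart afterwards. Itga3 was 6.62-fold above shNT at day 4 and 5.82-fold at day 6 (2.73 ± 0.16 and 2.54 ± 0.16; limma adjusted p = 1.08e-05 and 8.52e-06), and its 2 further probes rose on the same days, by 1.76 and 2.76 at day 4 and 2.07 and 2.55 at day 6.

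Itga8 encodes the alpha chain of the nephronectin receptor. Log2 signals were −2.44 and −1.27 versus −2.11 and −1.10 at day 2, −0.59 and −0.14 versus 1.59 and 1.71 at day 4 and −1.84 and −2.16 versus 0.64 and 0.38 at day 6. The day 2 groups overlapped and spread widely, and the later groups were apart by 2.01 ± 0.42 and 2.51 ± 0.42 (limma adjusted p = 0.00518 and 0.00138). One of its 3 kept probes did not pass (0.44 at day 4 and 0.67 at day 6). Itga11, for a collagen-binding chain, had a log2 signal of −6.84 and −5.83 versus −7.54 and −6.66 at day 2, −5.68 and −5.68 versus −4.86 and −4.62 at day 4 and −5.42 and −5.91 versus −2.58 and −2.79 at day 6. It was not well above background in shNT at day 6 and was at least 7.83-fold higher in shIno80 (limma adjusted p = 0.000271), while the 0.94 ± 0.37 at day 4 did not pass (adjusted p = 0.0729).

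Itga5, for the fibronectin-binding alpha 5 chain, did not pass on any day. The arrays read 0.61 and −0.30 versus 0.54 and −0.08 at day 2, −0.07 and −0.61 versus 0.27 and 0.38 at day 4 and 0.22 and 0.35 versus 0.76 and 1.03 at day 6. The shIno80 arrays were above shNT at days 4 and 6, by 0.66 ± 0.32 and 0.61 ± 0.32 (limma adjusted p = 0.136 and 0.152). Itga1 did not pass either by its brightest probe (0.19 ± 0.57 at day 6), but another probe, well above background on 10 arrays, was at 1.30 at day 6 with a limma adjusted p of 0.000774 over all probes kept.

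The alpha 6 and beta 4 chains together form the laminin receptor of hemidesmosomes, and alpha 6 also pairs with beta 1. Itgb4 had a log2 signal of 1.37 and 1.67 for shNT versus 1.47 and 1.76 for shIno80 at day 2, 1.75 and 2.07 versus 3.29 and 3.62 at day 4 and 0.88 and 0.83 versus 3.59 and 3.53 at day 6. The groups overlapped at day 2, and the shIno80 arrays lay above shNT at days 4 and 6, when shNT was first above and then below its day 2 signal. Itgb4 was 2.92-fold above shNT at day 4 and 6.52-fold at day 6 (1.55 ± 0.17 and 2.70 ± 0.17; limma adjusted p = 0.000206 and 1.04e-05). Of its other kept probes, one gave 1.55 and 2.71 on these days and the other, well above background on 9 arrays, 1.20 and 0.29. Itga6, well above background on all 12 arrays, had a log2 signal of 3.46 and 3.87 versus 3.50 and 3.53 at day 2, 3.1 and 3.45 versus 3.31 and 3.35 at day 4 and 2.97 and 2.97 versus 3.68 and 3.68 at day 6. It was higher at day 6 alone, by 0.71 ± 0.16 (limma adjusted p = 0.00536), where shNT had fallen by 0.70 ± 0.16 since day 2 (adjusted p = 0.0149).

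Itgav encodes the alpha v chain, which pairs with beta 1, beta 3, beta 5, beta 6 or beta 8 and binds vitronectin and latent TGF-beta. Its log2 signal was −0.41 and −0.91 for shNT versus 0.07 and −0.27 for shIno80 at day 2, −1.49 and −1.79 versus 0.11 and 0.25 at day 4 and −1.26 and −1.32 versus 0.81 and 0.92 at day 6. The shIno80 arrays lay above shNT on each day. Itgav was 3.52-fold above shNT at day 4 and 4.43-fold at day 6 (1.81 ± 0.19 and 2.15 ± 0.19; limma adjusted p = 0.000154 and 4.65e-05).

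The beta partners of alpha v did not move alike. Itgb6, the epithelial partner, was well above background only in shIno80 at day 6. Log2 signals were −7.79 and −8.34 versus −8.15 and −8.18 at day 2, −8.02 and −8.16 versus −6.95 and −6.70 at day 4 and −8.06 and −8.03 versus −5.56 and −5.45 at day 6. At day 6 it was at least 1.33-fold higher in shIno80. The fitted Itgb6 difference there was 2.54 ± 0.17 (limma adjusted p = 1.38e-05), with neither shNT array well above background. At day 4 no array had it well above background, so its call there (1.27 ± 0.17) rests on signals near background. With no filter the gene is read by another probe, at −0.01 at day 4 and −0.12 at day 6. Itgb8 had a log2 signal of −5.14 and −5.81 versus −4.94 and −7.18 at day 2, −8.40 and −8.25 versus −8.42 and −8.09 at day 4 and −4.34 and −5.39 versus −7.55 and −7.95 at day 6. It was not well above background in either arm at day 4 and in shIno80 at day 6, where it was at least 1.99-fold lower (limma adjusted p = 0.0064). Itgb5 differed by 0.28 ± 0.10 at day 6 (adjusted p = 0.0423). Itgb3 did not pass on any day, with 2 probes of opposite sign at day 6 (−0.39 and 0.47).

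Among the falls, Itgb7 was lower on all 3 days. Its product pairs with alpha 4 or with alpha E, and the alpha E form binds E-cadherin. The log2 signal of Itgb7 was 2.25 and 2.39 for shNT versus 1.45 and 1.36 for shIno80 at day 2, 2.18 and 2.18 versus −0.31 and −0.48 at day 4 and 2.31 and 2.39 versus −0.13 and −0.05 at day 6. The shNT arrays stayed at one level while both shIno80 arrays dropped, without overlap. Itgb7 was 1.88-fold lower at day 2, 5.96-fold at day 4 and 5.43-fold at day 6 (−0.91 ± 0.10, −2.58 ± 0.10 and −2.44 ± 0.10; limma adjusted p = 0.00178, 4.26e-06 and 1.65e-06). Its partner chains differed from it. Itga4 had a log2 signal of −5.98 and −5.54 versus −5.06 and −4.99 at day 2, −6.94 and −5.91 versus −4.54 and −4.48 at day 4 and −7.08 and −7.78 versus −6.40 and −7.15 at day 6. It was at least 2.87-fold higher in shIno80 at day 4 (limma adjusted p = 0.0043), and at day 6 it was not well above background on any of the 4 arrays. Itgae fell at day 6 alone, by 0.75 ± 0.18 (adjusted p = 0.00796).

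Itgal encodes the alpha L chain of the leukocyte receptor for ICAM proteins. The arrays read −1.68 and −1.73 for shNT versus −1.90 and −2.01 for shIno80 at day 2, −1.20 and −1.20 versus −2.73 and −3.02 at day 4 and −1.44 and −1.25 versus −4.47 and −4.22 at day 6. The gap widened from day to day. Itgal was 3.2-fold lower at day 4 and 8-fold at day 6 (−1.68 ± 0.14 and −3.00 ± 0.14; limma adjusted p = 4.36e-05 and 2.39e-06), and its other probe fell by 0.92 and 1.59. The beta chain of that receptor, Itgb2, differed by −0.15 ± 0.15 at day 6 and did not pass, and Itgam, another partner of beta 2, was at least 1.39-fold lower at day 6 with 1 shNT array well above background (adjusted p = 0.0155). The 8 leukocyte markers looked at summed to 4.91 to 5.08 times the 75th percentile in shNT and 4.46 to 5.02 in shIno80 at day 2, and to 4.51 to 4.54 and 4.38 to 4.49 at day 4. At day 6 the sums were 5.08 to 5.17 in shNT and 3.65 to 3.95 in shIno80, without overlap. Of these markers 1 was higher and 1 lower at day 2, 2 and 1 at day 4, and 2 were lower at day 6 (Cd3e by 0.62 ± 0.20 and Coro1a by 0.59 ± 0.10; limma adjusted p = 0.0332 and 0.00183). Ptprc, the pan-leukocyte marker, was well above background on no array of that day. Their part in the falls was not tested.

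Itga9, whose product pairs with beta 1 and binds tenascin and osteopontin, had a log2 signal of 1.48 and 1.35 versus 1.15 and 0.73 at day 2, −0.07 and 0.28 versus −1.56 and −1.79 at day 4 and 0.62 and 0.77 versus −1.06 and −1.17 at day 6. The shIno80 arrays were lower on each day, and by 1.78 ± 0.18 and 1.81 ± 0.18 at days 4 and 6 (limma adjusted p = 0.000113 and 7.6e-05). Of the other subunits, Itga2b rose by 0.80 ± 0.18 at day 4 and 0.78 ± 0.18 at day 6, and Itga7, Itga10 and Itgax passed on no day. Itgb4bp, the older name of a ribosome factor gene, differed by −0.25 ± 0.08 at day 4 (adjusted p = 0.042). With normexp background correction Itga3, Itgav, Itgb1, Itgb4, Itga9 and Itgb7 at days 4 and 6, and Itga8 and Itgal at day 6, kept their calls. All other calls of integrin subunits and that of Itgb4bp were lost, and the sign of Itga4 and Itgb6 at day 4 turned (−0.02 and −0.21).

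**Figure D5:**
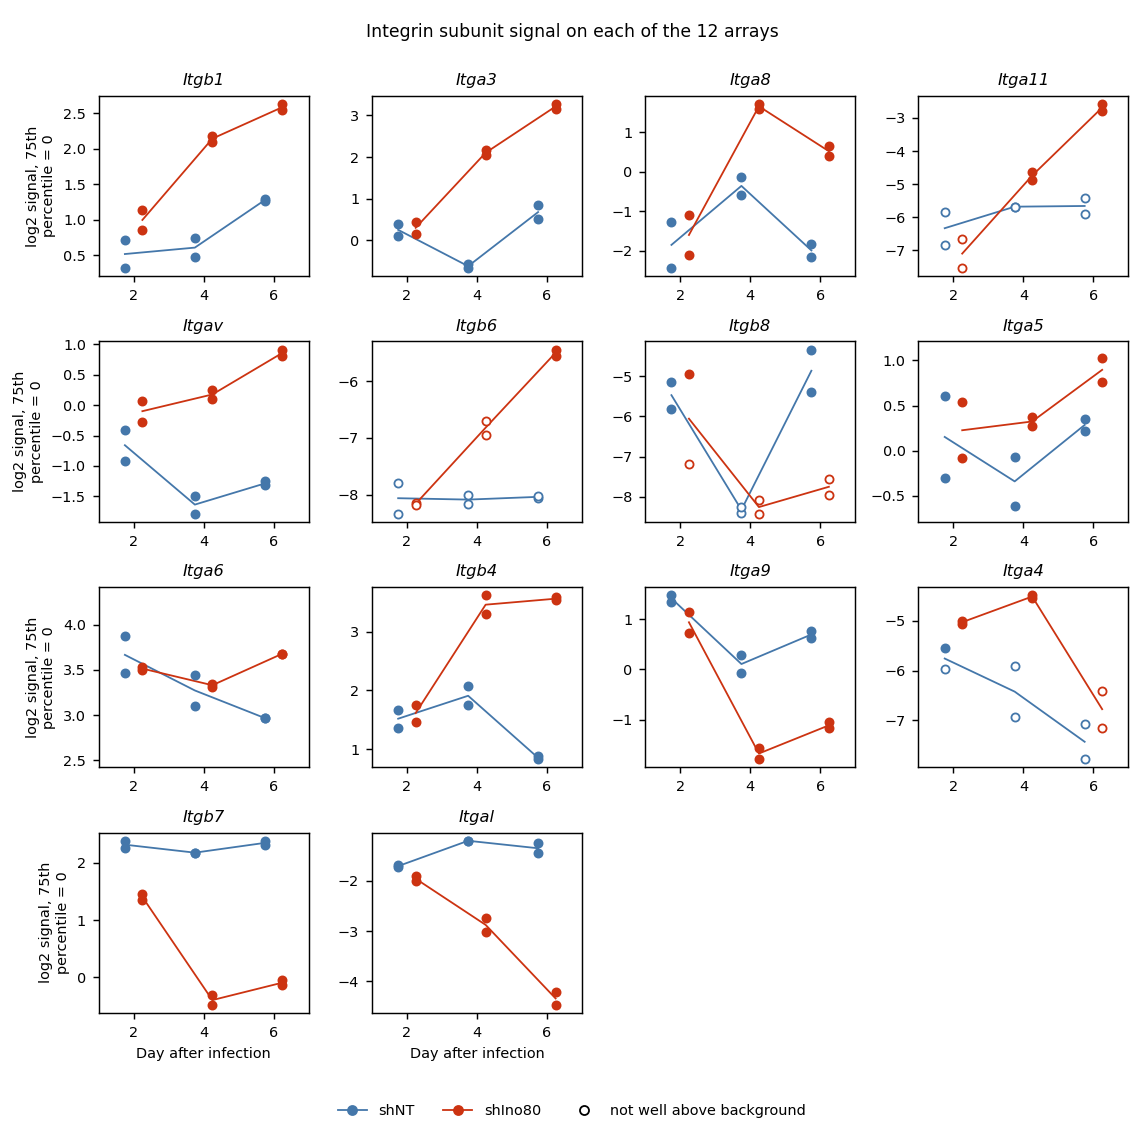
Log2 signal relative to the 75th percentile of the array for 14 integrin subunits on each of the 12 arrays, by day after infection, in shNT (blue) and shIno80 (red); lines join group means, open circles are arrays not well above background, and each panel has its own scale. At days 4 and 6 the shIno80 arrays of Itga3, Itgb4 and Itgav lie above shNT and those of Itga9, Itgb7 and Itgal below it.

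The differences themselves changed with time for part of the members. From day 2 to day 4, the difference rose for 12 of 53 members and fell for 3, against 8.33% and 7.01% of all genes. From day 4 to day 6 it rose for 2 (Itgb4 and Itgb6) and fell for 3 (Cdh15, Cdh22 and Itgal), against 1.64% and 2.08%. From day 2 to day 6 it rose for 17 and fell for 6, against 12% and 14.7%. These contrasts share arrays with each other and with the daily comparisons. The largest rises from day 2 to day 6 were those of Cldn23 (5.34 ± 0.59), Itga11 (3.74 ± 0.52), Itgb6 (2.64 ± 0.25) and Itgb4 (2.61 ± 0.25), and the largest fall that of Itgal (−2.75 ± 0.19; limma adjusted p = 0.000559, 0.00162, 0.000276, 0.000277 and 9.01e-05). Cldn23, Itga11 and Itgb6 had passed the filter only through shIno80 groups and were not well above background in shNT at day 6, so the sizes and order of their changes rest on signals near background. For Cldn12 and Cdh1, higher from day 2 on, no such change passed. The 5 changes from day 4 to day 6 became between 0 and 3 with any 1 of the 4 arrays of day 4, the first shNT array of day 6 or either shIno80 array of day 6 left out, and the 0 came without the second shNT array of day 4.

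Partners of the members were read from lists of known genes, chosen with earlier results of these data known and not tested as sets. Their counts stand against the shares of all genes given above: 6.3%, 21.2% and 21.8% higher and 6.33%, 21.2% and 28.4% lower at days 2, 4 and 6. Of 15 adherens junction genes, 0 were higher and 2 lower at day 2, 5 and 2 at day 4, and 7 and 3 at day 6 (46.7% and 20%), by limma. At day 2 the unadjusted p was under 0.05 for 3 of them. The median was 0.63 at day 6. Ctnnd2 (delta-catenin) rose by 2.59 ± 0.18, Vezt (vezatin) by 1.28 ± 0.12 and Nectin2 by 1.12 ± 0.11 at day 6 (limma adjusted p = 1.61e-05, 5.32e-05 and 6.24e-05). Of 19 tight junction genes other than claudins, 7 were higher and 1 lower at day 2, 13 and 3 at day 4, and 14 and 3 at day 6 (73.7% and 15.8%), with a median of 0.97 at day 6. Marveld2 (tricellulin) was already at 1.68 ± 0.17 at day 2 and Ocln (occludin) at 0.95 ± 0.16 (adjusted p = 0.0012 and 0.00822). At day 6 they were at 2.49 ± 0.17 and 2.37 ± 0.16, Pard6b, of the apical polarity complex, was at 2.35 ± 0.09, and Jam2, for a junctional adhesion molecule, fell by 2.49 ± 0.11 (adjusted p = 1.21e-05, 1.15e-05, 1.2e-06 and 2.2e-06).

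Of the 11 desmosome genes, 8 were kept. Of these, 5 were higher at day 4 and 6 at day 6 (75%), with a median of 1.41 at day 6. None passed at day 2 by limma, where 2 had an unadjusted p under 0.05. Dsp (desmoplakin) rose by 4.41 ± 0.16, Dsc2 (desmocollin) by 3.65 ± 0.32 and Perp by 2.74 ± 0.29 at day 6 (limma adjusted p = 1.2e-06, 4.13e-05 and 0.000121). Desmocollins are themselves cadherins, which the name rule does not take.

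On the integrin side, 2 of 23 adaptor genes were higher and 2 lower at day 2, 8 and 3 at day 4, and 13 and 4 at day 6 (56.5% and 17.4%), with a median of 0.63 at day 6. Tgfb1i1 (Hic-5) was at 4.01 ± 0.26, Parva (alpha-parvin) at 3.84 ± 0.15 and Lims2 (PINCH2) at 2.58 ± 0.17 at day 6 (limma adjusted p = 1.02e-05, 1.5e-06 and 1.21e-05). Of 20 ligand genes, 5 were higher and 3 lower at day 2, 9 and 6 at day 4, and 13 and 3 at day 6 (65% and 15%), with a median of 1.54 at day 6. Thbs1 (thrombospondin) was at 4.61 ± 0.21, Col1a1 at 3.91 ± 0.13 and Ccn1 at 3.74 ± 0.15 at day 6 (adjusted p = 2.29e-06, 9.68e-07 and 1.5e-06). Npnt and Spp1 were picked, after their values were seen, because their products bind a member described above. Npnt, for the nephronectin bound by alpha 8 beta 1, was at 3.14 ± 0.52, and Spp1, for the osteopontin bound by alpha 9 beta 1, fell by 2.84 ± 0.12 (adjusted p = 0.00125 and 2.08e-06).

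Of 15 transcription factors and splicing factors of the epithelial and mesenchymal state, 2 were higher and 1 lower at day 2, 2 and 2 at day 4, and 4 and 2 at day 6. The shares were 13.3% each way at day 4 and 26.7% and 13.3% at day 6, so at day 4 both were below those of all genes. The median difference was −0.11 at days 2 and 4 and −0.0026 at day 6. Zeb1, a repressor of Cdh1 in other epithelia, was lower on all 3 days. Its log2 signal was −1.01 and −1.44 for shNT versus −1.98 and −2.53 for shIno80 at day 2, −2.22 and −2.18 versus −5.31 and −5.07 at day 4 and −2.14 and −2.28 versus −5.45 and −5.72 at day 6, with 1 shIno80 array of day 6 well above background. The shIno80 arrays were the lower on each day (differences −1.02 ± 0.21, −2.99 ± 0.21 and −3.37 ± 0.21; limma adjusted p = 0.0195, 2.39e-05 and 9.6e-06). Among the higher genes, the mesenchymal factors Twist1 and Snai2 were at 1.32 ± 0.19 and 1.09 ± 0.22 at day 6 (adjusted p = 0.000618 and 0.0033).

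Cell type markers, also from lists chosen with earlier results known, moved beside the members. The 9 ESC markers summed to between 644 and 709 times the 75th percentile at day 6 of shNT and 262 to 271 in shIno80, and all 9 were lower at days 4 and 6 (Tcl1 by 3.23 ± 0.29 and Nanog by 2.69 ± 0.30 at day 6; limma adjusted p = 4.47e-05 and 0.000158). Of 10 trophectoderm markers, 9 were kept and 8 were higher at days 4 and 6. Tfap2c was lower at day 6 (−1.41 ± 0.26). Their sum was 26.2 to 29.6 at day 6 of shNT and 518 to 542 in shIno80, and at day 2 it was 8.35 to 10.3 and 9.69 to 12.5. Krt7 was at 5.40 ± 0.25, Hand1 at 5.32 ± 0.13 and Krt8 at 4.80 ± 0.20 at day 6 (limma adjusted p = 2.67e-06, 4.61e-07 and 1.65e-06). The 7 primitive endoderm markers summed to 0.834 to 1.00 in shNT and 1.68 to 1.79 in shIno80 at day 6, where 1 was higher (Dab2, 1.95 ± 0.11) and 1 lower (Pdgfra, −0.50 ± 0.16; limma adjusted p = 5.97e-06 and 0.0288). Fibroblast markers (9 of 10 kept) summed to 4.07 to 4.30 in shNT and 3.31 to 3.51 in shIno80 at day 2. At day 4 the sums were 4.10 to 4.11 and 2.99 to 3.22, although 4 of the markers were higher and 2 lower (median difference 0.49). A sum follows its brightest genes most, so it can differ from the counts. By day 6 the order of the sums had turned, to 4.24 to 4.63 and 4.93 to 4.94, again with 4 higher and 2 lower (44.4% and 22.2%). The largest of these changes were the rises of Col1a1, given above as a ligand, and Dcn (3.85 ± 0.34, limma adjusted p = 4.38e-05, 1 shNT array well above background). The 2 markers that fell were not among the largest changes and are given by count alone. Endothelial markers (5 of 7 kept) summed to 6.82 to 7.52 in shNT and 8.76 to 8.81 in shIno80 at day 2. At day 4 the sums were 7.49 to 7.53 and 8.27 to 9.13, and at day 6 8.50 to 8.56 and 6.59 to 6.78. On each of days 2 and 4, 1 of the 5 was higher and 0 lower, with median differences of 0.21 and −0.30. At day 6, 1 was higher (Kdr, 2.08 ± 0.27) and 2 lower (Pecam1, −1.83 ± 0.32, and Tek, −1.39 ± 0.23; limma adjusted p = 0.000355, 0.00167 and 0.00134). The part of these markers in the changes of cadherins, claudins and integrins was not tested.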

How the data were processed

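RNA of 12 J1 samples was measured on single-colour Agilent arrays. The authors' scanner files hold intensity per spot, background-subtracted and detrended by Feature Extraction 9.5.3.1 (protocol GE1-v5_95_Feb07), per the file headers. These headers name the green channel, and the labels Cy5. The deposited value table holds log2 values that equal the mean spot signal of 1 scanner file times 1 factor per array; what set that factor is not stated in any source used here.

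Each scanner file was matched to a column of that table (tolerance 1e-06), and groups follow the columns. The processed signal was divided by the 75th percentile of its array and taken to log2, 125 probes with marked spots were dropped, and 28654 of 41174 probes well above background on both arrays of a group were kept. Each gene's brightest probe went into limma 3.58.1 (R 4.3.3), with 6 group means on 12 arrays and Benjamini-Hochberg adjustment over 19185 genes at 0.05. The fit was checked on simulated data. Where a group was not well above background, folds are lower bounds: the bright group's mean against the higher of the probe's own signal and the lowest signal well above background on each array. P-values beside these bounds test the fitted difference. The number of arrays limits the precision.

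Members called by at least 1 on the log2 scale on any day are named with each array's value, as are Cdh1, Cdh2, Cdh3, Cldn3, Cldn4, Cldn6, Cldn7, Itga5, Itga6, Itgav, Itgb1 and Ino80; from each list 2 to 4 of the largest day 6 calls are named. Members and lists were chosen with earlier results of these data known. Alternatives were other scalings, normexp (offset 50), the value table, other filters, probe means, the scanner attachments, single slides, a replicate block and leaving out each array. Tables were made with Python 3.11.15 and pandas 2.3.3.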

Additional observations from a re-analysis of the deposited data

Results flagged for a closer look

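For 43 pairs of a member and 2 days, the difference of shIno80 and shNT itself changed between the days, by limma's test of that change with an adjusted p under 0.05 (log2 scale). Each day is also 1 slide, but each difference was taken within a slide. Among cadherins, from day 2 to day 4, it changed by 1.21 for Cdh10 and 0.93 for Cdh15. Among claudins, from day 2 to day 4, it changed by 3.94 for Cldn23, 1.51 for Cldn3, 1.35 for Cldn7, 1.30 for Cldn4 and 0.87 for Cldn9. Among integrin subunits, from day 2 to day 4, it changed by 2.68 for Itga3, 1.45 for Itgb4, 1.37 for Itgb6, 1.25 for Itgav and 1.05 for Itgb1. Among integrin subunits, from day 2 to day 4, it changed by −1.66 for Itgb7, −1.43 for Itgal and −1.31 for Itga9. Among integrin subunits, from day 4 to day 6, it changed by 1.27 for Itgb6 and 1.16 for Itgb4. Among cadherins, from day 4 to day 6, it changed by −1.73 for Cdh22 and −0.87 for Cdh15. Among integrin subunits, from day 4 to day 6, it changed by −1.32 for Itgal. Among cadherins, from day 2 to day 6, it changed by 2.27 for Cdh26, 1.53 for Cdh13 and 1.14 for Cdh2. Among claudins, from day 2 to day 6, it changed by 5.34 for Cldn23, 1.82 for Cldn3, 1.20 for Cldn7, 0.93 for Cldn9, 0.91 for Cldn4 and 0.88 for Cldn6. Among integrin subunits, from day 2 to day 6, it changed by 3.74 for Itga11, 2.64 for Itgb6, 2.61 for Itgb4, 2.49 for Itga3, 2.26 for Itga8, 1.59 for Itgav, 0.87 for Itga6 and 0.83 for Itgb1. Among cadherins, from day 2 to day 6, it changed by −1.97 for Cdh22. Among claudins, from day 2 to day 6, it changed by −1.78 for Cldn5. Among integrin subunits, from day 2 to day 6, it changed by −2.75 for Itgal, −1.53 for Itgb7, −1.33 for Itga9 and −1.13 for Itgae. Of these, Cldn23, Itgb6, Cdh26 and Itga11 were not well above background in shNT on most or all arrays, so the size of their changes rests on signals near background. Cdh22 was not well above background in shIno80 at day 6, so the sizes of its changes to that day rest on such signals too.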

How the results depend on the processing

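Members higher and lower in shIno80 numbered 4 and 2 at day 2, 20 and 4 at day 4, and 22 and 8 at day 6, and 15, 5 and 23 differences changed from day 2 to 4, day 4 to 6 and day 2 to 6. Median scaling, quantile normalization, the deposited value table and the mean of a gene's probes kept each of these counts within 1.5 times and turned no sign among the named calls. With normexp background correction the counts were 0 and 0 at day 2, 10 and 2 at day 4, and 11 and 3 at day 6, with 0, 0 and 3 changes between days (limma; 2050 of all genes had an unadjusted p under 0.05 at day 2, and 1825 and 561 in the first changes between days), and Cdh26 (−0.14), Itga4 (−0.021) and Itgb6 (−0.21) turned sign at day 4. With no filter on dim probes 1 member was lower at day 2 and 1 change from day 4 to day 6 passed, and Itgb6, read by another probe, was at −0.013 at day 4 and −0.12 at day 6. With only probes well above background on all 12 arrays, which tests fewer members, 5 were lower at day 6. In a fit of the day 2 slide alone, with fewer arrays, 0 members were higher and 0 lower, while 3260 of all genes had an unadjusted p under 0.05. With 1 array left out, members higher ranged from 2 to 5 at day 2, 17 to 21 at day 4 and 18 to 23 at day 6. Members lower ranged from 1 to 3, 3 to 4 and 6 to 9, and the changes between days from 7 to 16, 0 to 6 and 16 to 24. The low day 2 counts came without the second shIno80 array (2 higher), or without the second shNT or the first shIno80 array of day 2 (1 lower each). The changes from day 2 to day 4 fell to 9 without the second shNT array of day 4 and to 7 without the second shIno80 array of day 4. Apart from these settings and the causes named, the cause was not tested.

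Same-numbered arrays of the 2 arms deviated together with r = 0.30 at day 2, 0.12 at day 4 and 0.08 at day 6, so the numbers were not taken as pairs. With a replicate block, members higher and lower were 6 and 2, 20 and 4, and 22 and 8, with 14, 6 and 22 changes between days. With the scanner file attachments 0 members passed on any day and 0 changes between days did, and 32 named values turned sign. At day 2 Cdh2 was at 0.46, Cldn6 at −0.16, Itgb7 at 0.021 and Ino80 at 0.11. At day 4 Cldn1 was at −0.26, Cldn3 at −0.044, Cldn6 at −0.35, Cldn7 at −0.12, Cldn9 at −0.20, Itga3 at −0.013, Itga9 at 0.062, Itgav at −0.080, Itgb1 at −0.18 and Ino80 at 0.16. At day 6 Cdh10 was at −0.32, Cdh13 at −0.15, Cdh22 at 0.082, Cldn1 at −0.55, Cldn12 at −0.24, Cldn3 at −0.29, Cldn6 at −0.0063, Cldn7 at −0.25, Cldn9 at −0.035, Itga11 at −0.35, Itga3 at −0.10, Itga6 at −0.0012, Itga8 at −0.29, Itga9 at 0.017, Itgal at 0.22, Itgb4 at −0.051, Itgb7 at 0.078 and Ino80 at 0.19. Signals near background limit Cdh22, Cdh26, Cldn1, Cldn23, Itga4, Itga11, Itgb6 and Itgb8, for which sizes are bounds or rest on few measured arrays.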

Other observations

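Probes of the same gene did not always give the same value, and why was not tested. For Itgb4bp, the brightest probe was at −0.06, −0.25 and −0.20 at days 2, 4 and 6, while another probe, well above background on all 12 arrays, was at −1.95, −1.84 and −1.42. For Cldn1, the dimmer probe was at 2.41 at day 4 and 1.08 at day 6. For Itgav, the dimmer probe was at 2.60 and 2.81 on these days. The probe sequences and their places in the transcripts were not analysed here.

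Genes that stand next to each other in the RefSeq gene table did not always share a course. Cldn4 and Cldn3 were at 1.54 and 2.48 at day 6, and Cldn6 and Cldn9 at 1.84 and 1.23. Cdh3 and Cdh1 were at −0.06 and 1.15, Cdh9 and Cdh10 at 0.04 and 0.82, and Itgam and Itgax at −0.80 and 0.05.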
